A study of Sus scrofa with 6 samples.

Results

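The RNA levels of 10 genes of the cell cycle and of DNA replication were described in pig embryos with and without a paternal genome. The genes were CCND1, CDKN2D, CDC25C, KIF20A, KIF18A, INCENP, CDCA5, FEN1, RNASEH2A and POLA2, chosen by name, and all 10 lie on chromosome 2. They are 10 of the 30002 genes in the deposited tables, of the 2671 on chromosome 2 and of the 1652 that passed the expression filter and were tested. RNA-seq was run on whole embryos at embryonic day 21, of the strain Landrace x Yorkshire x Duroc (LYD), 3 parthenogenetic (PA) and 3 control (CN) embryos. PA embryos are diploid with maternal genomes only. They came from oocytes of slaughterhouse ovaries that were matured in vitro, electrically activated and carried by surrogate gilts. CN embryos are labelled untreated and came from natural mating, so they differed from PA in fertilization, in vitro maturation, activation and transfer together. The labels give LYD for both groups, but the study's methods name LYD ovaries as the source of PA and Landrace x Yorkshire gilts as dams of CN, so the maternal breed differed too. These differences cannot be told apart here. In both groups, embryos had been picked for an intact shape and a similar size, and their sex was not given in the sources used here. Each group came from 2 gilts, so at least 2 of its 3 embryos shared a gilt, and which ones was not given. P-values treat the embryos as independent and judge the difference between groups against the spread of embryos within them. They hold no measure of the spread between gilts.

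A dividing cell passes from G1 into S phase when D-type cyclins such as cyclin D1 (CCND1) activate CDK4 and CDK6, and INK4 proteins such as CDKN2D inhibit those kinases. In S phase the DNA polymerase alpha-primase complex, of which POLA2 is a subunit, lays down RNA-DNA primers. RNASEH2A, the catalytic subunit of RNase H2, and the flap endonuclease FEN1 take part in removing the primers' RNA. CDC25C is a phosphatase that activates CDK1 at entry into mitosis. CDCA5 (sororin) holds sister chromatids together with cohesin, KIF18A is a kinesin that aligns chromosomes, INCENP is the scaffold of the chromosomal passenger complex, and KIF20A is a kinesin of the central spindle needed for cytokinesis. Embryos of this age hold many proliferating cells.

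The libraries held 3100280 to 3276410 estimated counts in CN and 3360480 to 3573410 in PA. Between 82.8% (PA1) and 92.7% (CN1) of these counts lay on annotated chromosome 2 transcripts. Another 39 transcripts that the annotation used here does not hold took 6.91% to 7.77% of the counts in CN and 8.44% to 16.9% in PA. TPM (a Salmon level per transcript length, scaled to a fixed sum per embryo) was thus relative to little more than chromosome 2, and it was also given after rescaling each embryo by its TMM factor, an edgeR factor that compensates for such differences in composition. The factors were 1.01, 1.04 and 1.02 in CN1 to CN3 and 0.913, 0.993 and 1.04 in PA1 to PA3. A total of 3 counts, taken as the floor of detection, were worth 0.840 to 0.968 CPM (counts scaled to a fixed library total), and this floor covers counting error only.

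No difference between PA and CN passed the test in any of the 10 genes. In edgeR's quasi-likelihood test, 0 of 10 were differentially expressed (adjusted p below 0.05 and an absolute log2 fold change above 1), against 48 of the 1652 genes tested (2.91%). At an adjusted p below 0.05 and any fold change, 0 of 10 passed, against 108 of 1652 genes (6.54%). At an unadjusted p below 0.05 the 10 genes again gave 0, against 349 of 1652 genes (21.1%). DESeq2 gave 0 of the 10 genes by either rule, against 58 differentially expressed genes (2.97%) and 162 with an adjusted p below 0.05 (8.3%) among the 1951 genes to which it gave an adjusted p. The median log2 fold change, PA over CN, was -0.01 for the 10 genes and 0.02 for all genes tested. Their median absolute log2 fold change was 0.12, against 0.17 for all genes tested. The median SE was 0.09 for the 10 genes and 0.14 for all genes tested, so these medians are not at like precision. All 10 95% intervals lay within a 2-fold change in either direction, as did those of 1288 of the 1652 genes (78.0%), so a 2-fold difference in these 10 genes was outside the intervals, while smaller ones, up to the bounds given for each gene, were not. In whole embryos, fewer cells of a type and less RNA per cell cannot be told apart.

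Each of the 10 genes was read well above the floor, with 213 (CDC25C, PA2) to 4957 (CCND1, PA3) estimated counts per embryo. The order of mean TPM over the 6 embryos was KIF20A (609.8), CCND1 (507), FEN1 (371), RNASEH2A (369), POLA2 (249), CDKN2D (236), INCENP (218), CDCA5 (173), KIF18A (107) and CDC25C (96.4). The ranges over embryos overlapped between all neighbours in that order except CCND1 and FEN1, RNASEH2A and POLA2, and CDCA5 and KIF18A. The 10 genes thus fell into 4 steps of level, with KIF20A and CCND1 at the top and KIF18A and CDC25C at the bottom. Among the 1652 genes tested, CDC25C stood at the 45.4th percentile of mean TPM and KIF20A at the 85.2nd.

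**Figure D1:**
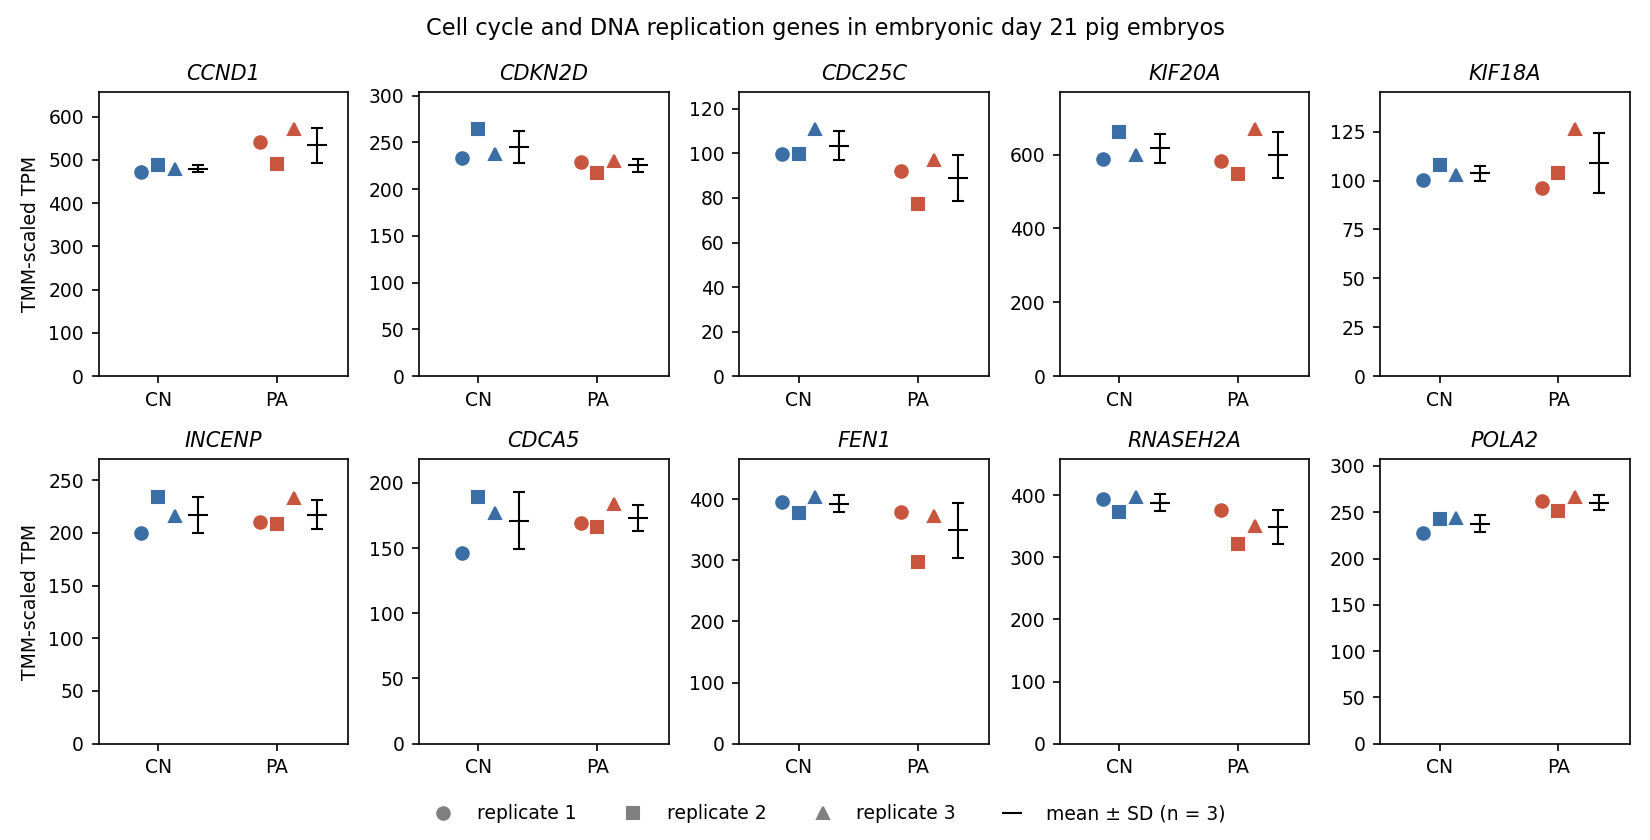
TMM-scaled TPM (y axis, starting at 0) of each of the 10 genes in the 3 CN and the 3 PA embryos, 1 panel per gene, with the replicate number shown by the symbol and bars at the mean and SD. PA lies above CN without overlap for CCND1 and POLA2 and below CN without overlap for CDKN2D and CDC25C, and the groups overlap for the other 6 genes.

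The G1/S pair consisted of a cyclin and a kinase inhibitor. CCND1 (gene ID 100738589, chr2:3621242-3633380 of Sscrofa11.1, minus strand, 1 annotated transcript of 5 exons) had a TPM of 475, 507 and 489.6 in CN1 to CN3 and of 494, 488 and 592 in PA1 to PA3. PA3 was the highest embryo, and the groups overlapped. On the TMM-scaled scale CCND1 was 472 to 489 in CN and 491 to 571 in PA, without overlap, although CN2 and PA2 differed by little. The edgeR log2 fold change was 0.16 (SE 0.08, 95% interval -0.03 to 0.35, adjusted p = 0.317). CDKN2D (gene ID 100525560, chr2:69337428-69339998, minus strand, 3 exons) had a TPM of 235, 274 and 242 in CN and of 209, 216 and 238 in PA. TPM of PA3 lay between CN1 and CN3, so that the groups overlapped, whereas after TMM scaling CN was 233 to 264 and PA 217 to 230.2. Its log2 fold change of -0.11 (SE 0.09) had an interval from -0.33 to 0.10 and an adjusted p of 0.545.

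CDC25C (gene ID 100144474, chr2:140289156-140323696, minus strand, 15 exons), the phosphatase of mitotic entry, had the lowest mean level. With all embryos it also had the largest of the 10 log2 fold changes in absolute size. That place was not stable: without PA2 the edgeR value was -0.13 for CDC25C and 0.21 for CCND1, and without CN1 it was -0.18 and 0.21. TPM was 100.3, 104 and 113 in CN1 to CN3 and 84.3, 76.6 and 100.4 in PA1 to PA3, with means of 106 ± 6.70 and 87.1 ± 12.1 (SD, n = 3 each). PA1 and PA2 were lower than every CN embryo and PA3 was level with CN1. After TMM scaling the groups did not overlap (99.7 to 111 in CN and 77.2 to 96.9 in PA). The log2 fold change was -0.22 with the largest SE of the 10 genes, 0.14, and with an interval from -0.53 to 0.10 and an adjusted p of 0.422 in edgeR.

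Of the mitotic genes, KIF20A (gene ID 100515193, chr2:140202316-140213144, plus strand) lies 76.0 kb from CDC25C and was the most highly expressed of the 10. Its TPM was 593, 687 and 611 in CN and 531, 545 and 693 in PA, and PA3 exceeded all other embryos while PA1 and PA2 were below all others. The edgeR log2 fold change was -0.03 (SE 0.08, interval -0.23 to 0.16). KIF18A (gene ID 100518110, chr2:32244073-32331392, plus strand, 17 exons) had a TPM of 101, 112 and 105 in CN and of 88.0, 103 and 131 in PA. PA embryos held both the lowest and the highest value, and the coefficient of variation was 5.27% in CN and 20.2% in PA, the largest in either group for the 10 genes. Its log2 fold change was 0.08 (SE 0.11, interval -0.17 to 0.32). INCENP (gene ID 100516847, chr2:9411942-9445825, minus strand, 20 exons) had a TPM of 201, 243 and 221 in CN and of 192, 207 and 241 in PA. CDCA5 (gene ID 100519128, chr2:7103648-7112772, plus strand, 6 exons) had a TPM of 148, 197 and 181 in CN and of 155, 165 and 191 in PA. For both, the PA values lay within the range of CN, apart from INCENP in PA1. The log2 fold change was 0.01 for INCENP (SE 0.07, interval -0.16 to 0.18) and 0.03 for CDCA5 (SE 0.08, interval -0.16 to 0.21). The adjusted p-values of the 4 genes in edgeR were between 0.733 for KIF18A and 0.941 for INCENP. Their direction was not stable: the log2 fold changes of INCENP and CDCA5 were -0.05 and -0.03 with library totals in place of TMM factors, and those of KIF20A and KIF18A changed sign when single embryos were left out.

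The replication genes were a pair of primer-removing nucleases and a polymerase subunit. FEN1 (gene ID 100517749, chr2:9752004-9756863, minus strand, 2 exons), 306 kb from INCENP, had a TPM of 398, 392 and 412 in CN and of 346, 295 and 385 in PA. RNASEH2A (gene ID 100523170, chr2:66192785-66208417, minus strand) had a TPM of 396, 386 and 406 in CN and of 343, 319 and 363 in PA. For these nucleases the highest PA embryo was still below the lowest CN embryo, and PA2 was the lowest of the 6. The mean of FEN1 was 401 ± 10.6 in CN and 342 ± 44.9 in PA, and that of RNASEH2A was 396 ± 9.60 in CN and 342 ± 22.0 in PA (SD, n = 3 each). The exact permutation test of TPM gave p = 0.1 for each, two-sided, which is the smallest p that 3 embryos against 3 can give. The separation depended on the scale, since TMM-scaled TPM overlapped at PA1 for both genes (FEN1 377 to 404 in CN and 297 to 379 in PA, RNASEH2A 372.5 to 398 in CN and 321 to 375 in PA). In edgeR the log2 fold change was -0.17 for FEN1 (SE 0.12, interval -0.43 to 0.10, adjusted p = 0.460) and -0.15 for RNASEH2A (SE 0.11, interval -0.39 to 0.09, adjusted p = 0.472). POLA2 (gene ID 100513971, chr2:6922384-6950289, minus strand), 153 kb from CDCA5, had a TPM of 229, 251 and 249 in CN and of 239.8, 249 and 276 in PA. These TPM values overlapped, while after TMM scaling POLA2 was 227 to 244 in CN and 251 to 267 in PA. Its log2 fold change was 0.14 (SE 0.08, interval -0.04 to 0.31, adjusted p = 0.363).

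Counted over the 10 genes, the TPM of the groups did not overlap in 2, both lower in PA (FEN1 and RNASEH2A), and in 0 that were higher in PA. Over all genes tested, 274 of 1652 were lower (16.6%) and 83 were higher (5.02%) without overlap. On the TMM-scaled scale 2 of the 10 genes were lower without overlap (CDKN2D and CDC25C), against 221 of 1652 genes (13.4%), and 2 were higher (CCND1 and POLA2), against 190 of 1652 (11.5%). The exact permutation test gave p = 0.1 for these 4 genes after TMM scaling, and p = 0.2 for CDKN2D and CDC25C, 0.6 for CCND1 and 0.5 for POLA2 on TPM as deposited. No gene of the 10 was without overlap on both scales.

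The embryos kept similar places across the 10 genes within a scale, but which PA embryo was lowest depended on the scale. In TPM, PA3 was the highest PA embryo in 10 of 10 genes and CN1 the lowest CN embryo in 8 of 10. Over all genes tested, PA3 was the highest PA embryo in 57.5% and CN1 the lowest CN embryo in 68.1%. PA1 was the lowest PA embryo in 6 of 10 genes in TPM, against 62.0% of all genes tested, and PA2 in 4 of 10, against 26.7%. After TMM scaling, PA2 was the lowest PA embryo in 9 of 10 genes, with KIF18A the exception, against 36.5% of all genes tested. On that scale PA3 was the highest PA embryo in 8 of 10 genes, against 39.1%, and PA1 was the highest in FEN1 and RNASEH2A. The 10 genes share their libraries, so these counts are a description.

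**Figure D2:**
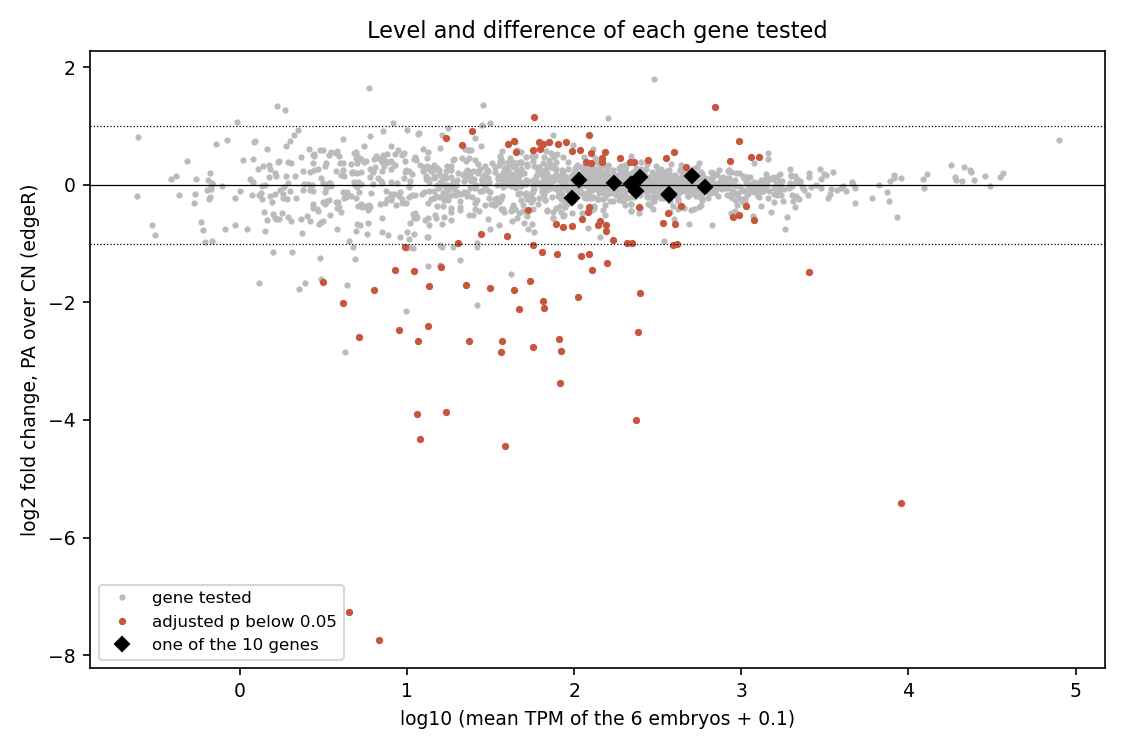
Log2 fold change of PA over CN from edgeR (y axis) against log10 of the mean TPM of the 6 embryos plus 0.1 (x axis) for the 1652 genes tested, with dotted lines at a 2-fold change. The 10 genes (black diamonds) lie between -0.22 and 0.16 near the zero line, and the genes with an adjusted p below 0.05 (red) reach past the dotted lines, mostly downward.

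Of the 10 genes, 7 had 1 annotated transcript each and 3 had several. The estimated reads of KIF20A went mainly to XM_013995157.2 (19 exons), with 60.3% ± 3.52 of the gene's TPM in CN and 61.4% ± 0.885 in PA, and to XM_021084835.1 (18 exons), with 38.4% ± 4.34 and 37.6% ± 0.260 (SD, n = 3). Exact permutation tests gave p = 0.9 and p = 1. POLA2 was mainly XM_013994109.2, with 84.8% ± 2.81 in CN and 86.2% ± 4.42 in PA (exact permutation p = 0.7). The share of XM_021082861.1, also with 18 exons, was 10.8%, 11.9% and 10.98% in CN1 to CN3 and 10.3%, 9.42% and 5.17% in PA1 to PA3. The PA values were the lower ones, most of all in PA3, and the difference in mean share was -2.93 percentage points with all embryos and -1.37 without PA3. It met the rule for comparing shares (a mean of at least 10% in either group) through CN alone, the group where it was higher, so its exact permutation p of 0.1, the smallest possible, is not read as a difference. RNASEH2A had 14 annotated transcripts, 11 of them above 0, and NM_001244444.1 (8 exons) took 74.0% ± 1.77 of its TPM in CN and 75.5% ± 0.941 in PA.

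Reads shared with genes on the other strand could not be separated, since the library kit does not mark strand. KIF20A shared 1462 of its 5388 exonic bases with CDC23, a subunit of the anaphase-promoting complex, all of them in XM_003123952.6, which took 1.34% of the gene's TPM in CN and 1.01% in PA. RNASEH2A shared 106 exonic bases with PRDX2, in XM_021079444.1 and XM_021079460.1, which together reached at most 6.64% of its TPM in an embryo. KIF18A shared 2 bases with METTL15, and the other 7 genes shared none.

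**Figure D3:**
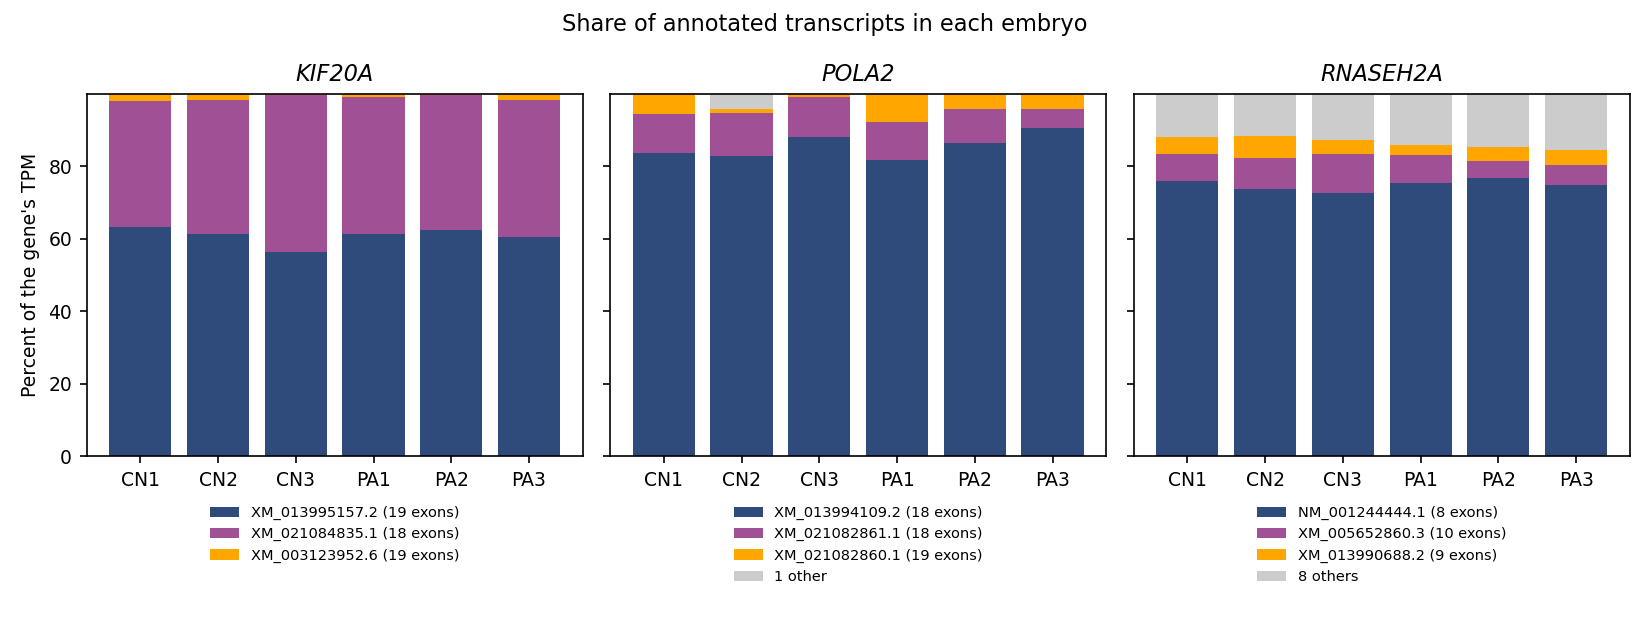
Percent of each gene's TPM assigned to its annotated transcripts (y axis) in each of the 6 embryos (x axis) for KIF20A, POLA2 and RNASEH2A, with up to 3 transcripts in colour and any others in grey. The main transcript holds 56.4% to 63.2% of KIF20A, 81.8% to 90.6% of POLA2 and 72.5% to 76.6% of RNASEH2A.

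Promoters of cell cycle genes are known for CCAAT boxes, for the cell cycle genes homology region (CHR) in genes of G2 and mitosis and for E2F sites in genes of S phase. Windows from 250 bases before to 50 after the start of each gene's main transcript were searched on both strands. CCAAT was found in 8 of the 10 windows and in 36.3% of 1530 such windows on chromosome 2. The CHR letters TTTGAA or TTCGAA were found in 3 of 10 (CDKN2D, KIF18A and INCENP), against 11.6%. An E2F site, searched as TTTGGCGC, TTTCCCGC, TTTGCCGC or TTTCGCGC, was found in 3 of 10 (CDKN2D, CDC25C and KIF18A), against 3.99%. The GC box GGGCGG was found in 9 of 10, against 62.2%, and TATAAA in 1 of 10 (POLA2), against 7.97%. The E2F match overlapped a GC box in CDC25C and in CDKN2D. A match is a description of letters and not a bound site.

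Stretches of 4 of these windows are shown because they carry different arrangements in genes of mitotic entry and mitosis. INCENP has several CCAAT boxes with a CHR, and KIF20A has a pair of CCAAT boxes without a match to the CHR or E2F letters searched. KIF18A has an E2F site upstream of a CCAAT box, and CDC25C has an E2F site without a CCAAT box before its annotated start. The annotated CDC25C transcript, of 1506 bases, begins with the letters ATG. Its window may thus be placed by the coding start and not by the start of transcription. Each stretch runs 5′ to 3′ along the gene over 150 bases of Sscrofa11.1, from 120 before the start of the main transcript to 30 after it. Capitals mark CCAAT, CHR and E2F matches on either strand (ATTGG is CCAAT read from the other strand).
INCENP (chr2:9445796-9445945, - strand): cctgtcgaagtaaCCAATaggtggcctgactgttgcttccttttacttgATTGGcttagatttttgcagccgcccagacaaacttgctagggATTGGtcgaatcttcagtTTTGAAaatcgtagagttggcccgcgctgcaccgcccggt
KIF20A (chr2:140202197-140202346, + strand): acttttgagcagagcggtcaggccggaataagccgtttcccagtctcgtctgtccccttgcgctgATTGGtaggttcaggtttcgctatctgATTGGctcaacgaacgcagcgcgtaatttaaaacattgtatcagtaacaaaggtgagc
KIF18A (chr2:32243953-32244102, + strand): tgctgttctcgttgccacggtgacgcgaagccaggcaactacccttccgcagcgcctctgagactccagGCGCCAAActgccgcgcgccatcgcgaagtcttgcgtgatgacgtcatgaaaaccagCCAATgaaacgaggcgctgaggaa
CDC25C (chr2:140323667-140323816, - strand): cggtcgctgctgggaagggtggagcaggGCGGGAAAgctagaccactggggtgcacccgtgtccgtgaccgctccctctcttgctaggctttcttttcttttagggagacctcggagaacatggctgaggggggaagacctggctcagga

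Counted from the start of the main transcript, both INCENP and KIF20A held a CCAAT box at position -28, and KIF20A had the higher TPM in each of the 6 embryos. KIF18A held its CHR at position 42, outside the stretch shown. FEN1 and CCND1 were the genes without CCAAT in the window, and their log2 fold changes of -0.17 and 0.16 lay on either side of 0. The GC content of the 10 windows ranged from 37.3% (POLA2) to 66.3% (CCND1 and CDCA5), with a median of 62.7% over all 1530 windows.

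The other chromosome 2 genes of 5 lists gave the surroundings of the 10 genes: G1/S cyclins, kinases and inhibitors, G2/M entry with the anaphase-promoting complex, mitotic kinesins with spindle, centromere and cohesin, DNA replication with S-phase chromatin, and DNA damage response with repair. Without the 10 genes, 40 were tested, of which 2 were higher in PA, 0 lower and 38 did not pass at an adjusted p below 0.05 in edgeR, against 35 higher and 73 lower of the 1652 genes tested. At an unadjusted p below 0.05 there were 8 of 40, against 349 of all 1652, and the median log2 fold change was 0.02 to 2 decimals in both.

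Both genes that passed belonged to the G1/S list, in which 2 of 11 tested genes rose and 0 fell, with a median log2 fold change of -0.05. CDKN1C, an inhibitor of G1 cyclin-CDK complexes that is expressed from the maternal allele in mouse and human, had a TPM of 725, 779 and 757 in CN1 to CN3 and of 1128, 1387 and 1075 in PA1 to PA3. The groups were far apart, with a log2 fold change of 0.74 (SE 0.12, interval 0.46 to 1.02, adjusted p = 0.0111). GADD45B, a stress-induced gene of growth arrest, had a TPM of 51.7, 51.8 and 48.6 in CN and of 67.4, 80.9 and 73.0 in PA. Again every PA embryo was above every CN embryo, with a log2 fold change of 0.60 (SE 0.15, interval 0.27 to 0.94, adjusted p = 0.0478). DESeq2 also called both (adjusted p = 4.72e-06 for CDKN1C and 0.00844 for GADD45B). In edgeR the log2 fold change stayed between 0.62 and 0.88 for CDKN1C and between 0.53 and 0.70 for GADD45B when single embryos were left out, but the adjusted p did not always pass. CDKN1C had an adjusted p of 0.0567 without CN2 and of 0.0503 without CN3, and GADD45B had 0.171 without CN2, 0.176 without CN3, 0.0721 without PA1, 0.150 without PA2 and 0.0682 without PA3. GADD45B also missed the threshold with library totals (log2 fold change 0.54, adjusted p = 0.0721) and under the replicate block (0.60, adjusted p = 0.0660). The most highly expressed others of the list were SKP1, a subunit of SCF ubiquitin ligases, at a mean TPM of 2253, with a log2 fold change of 0.04 (adjusted p = 0.890), and PPP2CA, a catalytic subunit of protein phosphatase 2A, at 1668, with -0.13 (adjusted p = 0.479).

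In the other 4 lists 0 genes passed in edgeR and 0 in DESeq2. G2/M entry held 5 tested genes, 0 of them at an unadjusted p below 0.05, with a median log2 fold change of 0.03. Its most highly expressed genes besides CDC25C were PPP1CA, a catalytic subunit of protein phosphatase 1 (log2 fold change -0.08), FZR1, an activator of the anaphase-promoting complex (0.18, interval -0.003 to 0.37), and WEE1, the kinase that opposes CDC25C at CDK1 (0.06). The mitotic list held 11, 2 of them at an unadjusted p below 0.05, with a median of 0.02. There the nuclear envelope genes BANF1 and LMNB1 had log2 fold changes of -0.09 and 0.05, and CKAP5, a microtubule polymerase of the spindle, had 0.14.

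Among 11 replication and S-phase chromatin genes tested, 0 had an unadjusted p below 0.05, and the median was -0.03. RNASEH2C, another subunit of RNase H2, had a TPM of 1134, 1077 and 1061 in CN and of 940.5, 861 and 839 in PA. As with RNASEH2A, PA was below CN in every embryo, and here also after TMM scaling, but the log2 fold change of -0.24 (interval -0.54 to 0.06, adjusted p = 0.361 in edgeR) did not pass. SSRP1, a subunit of the histone chaperone FACT, and UHRF1, which reads hemimethylated DNA behind the replication fork, had log2 fold changes of 0.04 and 0.02. The repair list held 12 tested genes, 3 of them at an unadjusted p below 0.05, with a median of 0.13. DDB1, an adaptor of CUL4 ubiquitin ligases, SMARCA4, an ATPase of SWI/SNF remodelling complexes, and BABAM1, of the BRCA1-A complex, had log2 fold changes of 0.14, 0.13 and -0.03.

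**Figure D4:**
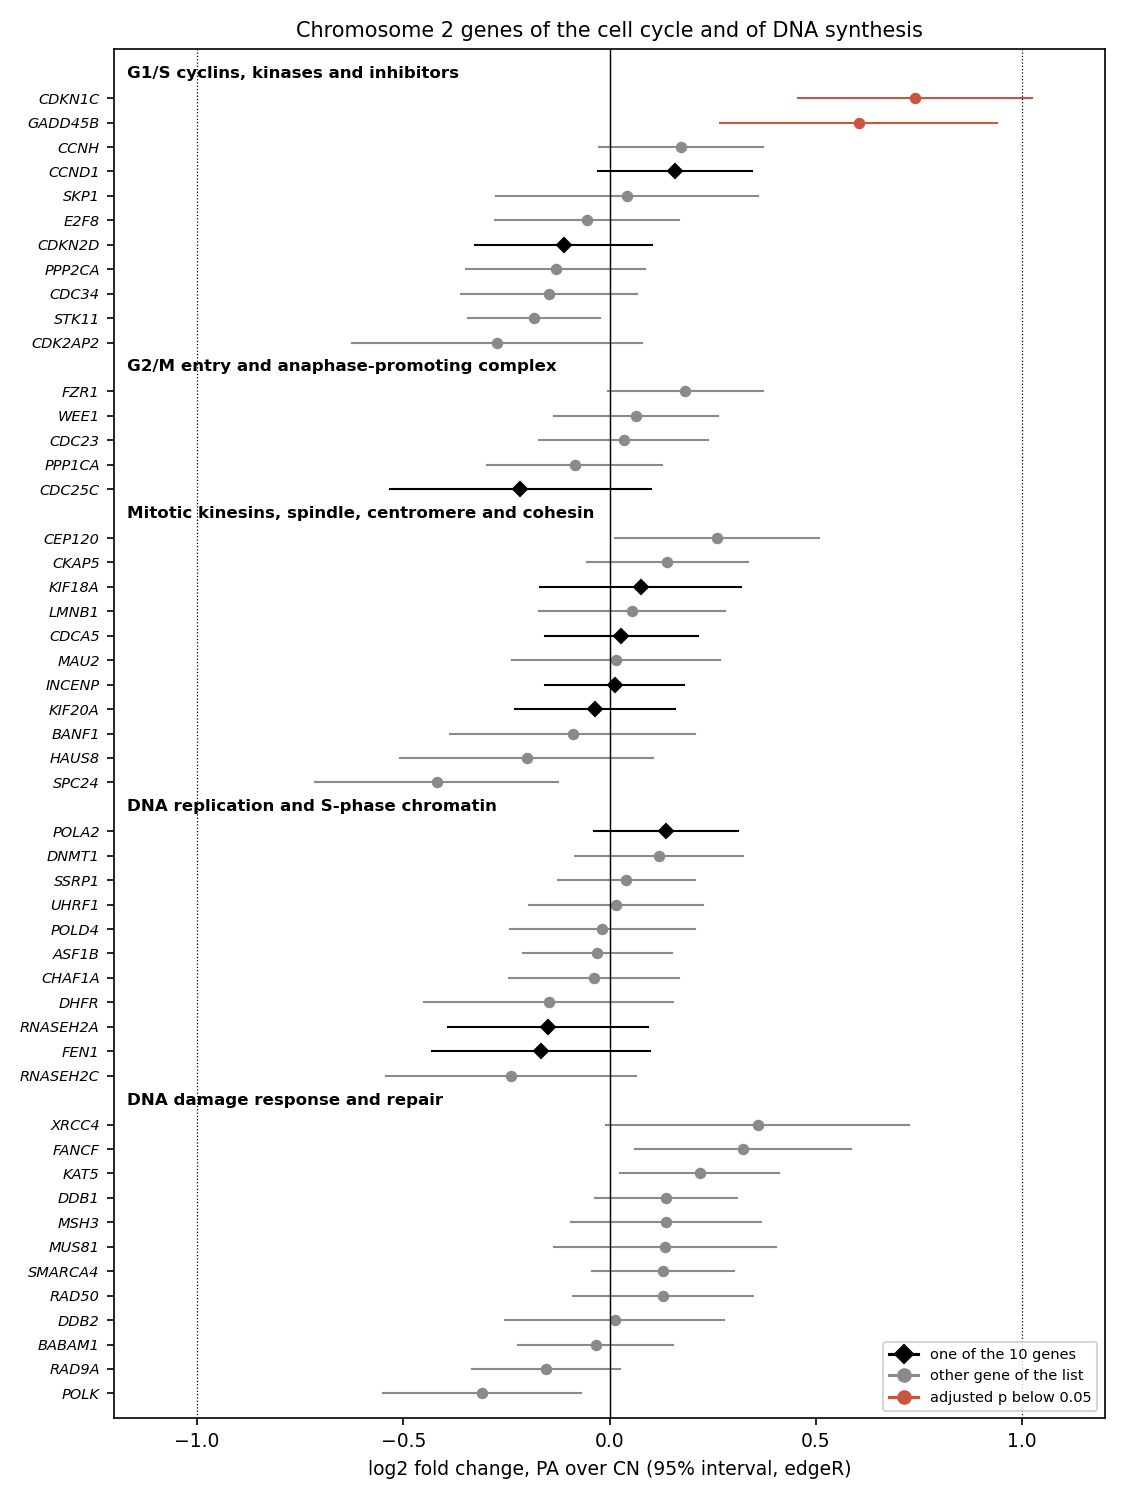
Log2 fold change of PA over CN with its 95% interval from edgeR (x axis) for the 50 tested genes of the 5 lists, grouped by list, with the 10 genes as black diamonds and dotted lines at a 2-fold change. The intervals of all 10 genes cross 0, and CDKN1C and GADD45B (red) are the genes with an adjusted p below 0.05.

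RNA of tissue markers that lie on chromosome 2 was also compared. Summed TPM of 6 neural markers was 1388 to 1740.2 in CN and 1985 to 2333 in PA, and 6 of 6 rose in edgeR, among them PAX6 (log2 fold change 0.84), SYT13 (0.70), SLC1A2 (0.80), DPYSL3 (0.47), NRXN2 (0.73) and ELAVL3 (0.46). Summed TPM of 5 muscle markers was 1163 to 1274 in CN and 612 to 765 in PA, and 2 of 5 fell, MYBPC3 (-0.98) and TNNI2 (-1.34), while CSRP3, the highest, had -0.58 (adjusted p = 0.118). All 5 muscle markers had an unadjusted p below 0.05 and lay lower in PA without overlap, in TPM and after TMM scaling. Kidney tubule markers, 5 tested of 6, summed to 535 to 844 in CN and 69.8 to 196 in PA, and 4 of 5 fell, from SLC5A12 (-2.10), SLC34A1 (-2.51) and SLC22A8 (-2.82) to SLC22A12 (-4.32). Erythroid markers were 7516 to 8974 in CN and 7008 to 7286 in PA, with 0 of 3 passing, 1 of 3 at an unadjusted p below 0.05, and PRDX2, the highest, at -0.13. PRDX2, at a mean TPM of 7416, made up most of this sum. The other erythroid markers, named after their values were seen, were KLF1 at -0.74 (edgeR adjusted p = 0.127) and EPOR at -0.06. KLF1 was lower in PA without overlap, in TPM and after TMM scaling, and EPOR overlapped on both scales. Liver markers were 5928 to 6829 in CN and 4930.1 to 7382 in PA, with 0 of 5 passing, 0 of 5 at an unadjusted p below 0.05, and SERPING1, the highest, at -0.07. DESeq2 called 6 of 6 neural, 3 of 5 muscle, 4 kidney tubule, 1 of 3 erythroid and 0 of 5 liver markers. The trophoblast marker PAG6 was listed at 0 in 5 embryos and at a TPM of 0.413 in PA2, and no marker on chromosome 2 was at 0 in all 6 embryos. Neural, muscle and kidney tubule markers moved with the group beside the levels of the 10 genes and of CDKN1C and GADD45B, and their part in those values was not tested.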

How the data were processed

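RNA-seq of 3 CN and 3 PA whole embryos was analysed from tables that the authors made with Salmon 1.3.0. The authors deposited estimated counts per transcript, which are not whole numbers, and TPM, which Salmon scales to a fixed sum per embryo, beside effective transcript lengths. Per the labels, STAR 2.7.5, Picard and SAMtools were also used on the Sscrofa11.1 build. Libraries were polyA-selected and not stranded. Transcripts were joined to genes by NCBI Annotation Release 106 of that build, and counts and TPM were summed per gene, for chromosome 2 loci where a symbol had several. Depth was 3100280 to 3573410 counts per embryo, with 213 to 4957 for each of the 10 genes.

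Gene counts were rounded and fitted in R 4.3.3 with edgeR 4.0.16 (TMM, average transcript length offset, robust dispersions, filterByExpr at its default minima of 10 and 15 counts, quasi-likelihood test, two-sided). Adjustment was by Benjamini and Hochberg over the 1652 genes tested. Each standard error was obtained from the log2 fold change and the F statistic of its test. TPM and transcript shares were compared by two-sided exact permutation tests on embryos, TPM as log2(TPM + 0.1), shares for transcripts with a mean of at least 10% of a gene's TPM in either group, in genes with at least 2 such transcripts, which left RNASEH2A out. The procedure was tested on simulated data. Alternatives were DESeq2 1.42.0, library totals, no length offset, no or a stricter expression filter, chromosome 2 alone, the replicate block, and leaving out each embryo. Python 3.11.15 and pandas 2.3.3 handled the tables.

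The 10 genes, the lists and the tests were chosen with earlier results of these data known. Named besides the 10 genes are list genes with an adjusted p below 0.05, the 3 most highly expressed others of each pathway list and the most highly expressed marker of each tissue, and genes whose exons overlap those of the 10. SPC24, KLF1 and EPOR were named after their values were seen. Promoter windows were read from the genome of the same build. Whole-genome bisulfite data were not used here.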

Additional observations from a re-analysis of the deposited data

How the results depend on the processing

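The 10 log2 fold changes stayed on the same side of the threshold under all 13 alternatives (0 of 130 values passed), with a range from -0.28 to 0.21 and adjusted p-values from 0.150 to 0.996. Small values changed sign: INCENP was -0.046 with library totals and -0.0061 with chromosome 2 genes alone, and CDCA5 was -0.030 with library totals. With each embryo left out in turn, INCENP ranged from -0.0044 to 0.041, CDCA5 from -0.010 to 0.078, KIF20A from -0.083 to 0.016 and KIF18A from -0.0072 to 0.15. Without an expression filter 77 genes were differentially expressed, 196 had an adjusted p below 0.05, and the mitotic list held 1 such gene, SPC24, chosen after its values were seen (main log2 fold change -0.42, adjusted p = 0.102), where more genes were tested. Leaving out an embryo gave 48 (without CN2) to 128 (without PA1) genes with an adjusted p below 0.05, 54 without CN3, 58 without PA2 and 70 without PA3, and 0 to 2 genes of the G1/S list. That list held 1 gene with library totals and 1 with the replicate block. With library totals the genes with an adjusted p below 0.05 split into 23 higher and 103 lower in PA, in place of 35 and 73. The causes were not tested.

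Replicate numbers were not taken as a pairing of PA with CN embryos in the main fit. The deviations of same-numbered PA and CN embryos correlated at 0.254, 0.122 and 0.0428, and those of differently numbered embryos at -0.244 to 0.166. These values do not decide whether the numbers pair the embryos. With the replicate block 43 genes were differentially expressed and 106 had an adjusted p below 0.05, and 0 of the 10 genes passed. CDC25C, with the fewest counts of the 10 genes, had the widest interval.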
